A study of Homo sapiens with 9 samples.

Results

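The transcription factors *FOXO1*, *FOXO3* and *FOXO4*, together with *IRS2*, *PIK3IP1*, *TXNIP*, *CCNG2*, *KLF2* and *SESN3*, genes commonly listed among their targets, were read in SET2 cells with and without an edited *DYRK1A* gene. The 9 genes were chosen by name, because FOXO1 is a substrate of the kinase DYRK1A. No measured value entered that rule, but earlier results of these data were known when it was set. Each matched 1 of the 60662 genes in the deposited table. SET2 is an established megakaryoblastic line of acute myeloid leukemia that followed a myeloproliferative neoplasm (MPN), and it carries mutant *JAK2*. Bulk RNA of untreated cells was sequenced in 3 libraries of WT cells, 3 of *DYRK1A* KO clone 11H1 and 3 of *DYRK1A* KO clone 14B5. All libraries therefore share the *JAK2*-mutant background and differ in *DYRK1A* and in clonal origin. Each clone was grown from 1 cell after Cas9 ribonucleoprotein was delivered by nucleofection, and was kept because it held only out-of-frame indels. No clone with intact *DYRK1A* was analysed here, so the effect of the lesion and the effect of the founder cell cannot be told apart. Nothing in the labels says that libraries of a group came from separate cultures, so p values measure the spread between these libraries, which may be technical.

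FOXO factors bind DNA through a forkhead domain and switch on genes of growth arrest, cell death, stress resistance, autophagy and nutrient signaling. When PI3K is active, the kinases AKT and SGK phosphorylate them, 14-3-3 proteins hold them in the cytoplasm and their targets fall silent. DYRK1A phosphorylates FOXO1 at a separate site. Most of this control acts on the protein, whose amount, phosphorylation and place in the cell are not seen by RNA-seq.

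The promoters of the members are described first, to show which hold the letters of a FOXO site near the start. The members were not chosen by such a site. RefSeq (GRCh38.p14) gave a window of 300 bases, from 250 before to 50 after the start, for all 9 members. The core of the FOXO consensus, GTAAACA read on either strand, was present in *FOXO4*, *PIK3IP1* and *TXNIP*, 3 of 9 members, and in 4.19% of the 27305 genes with a window. The related letters CAAAACA, known from insulin response elements, were present in *IRS2* only among the members and in 6.05% of all genes. *TXNIP* also held CACGAG followed after 5 bases by a second CACGAG, a paired E-box known as a carbohydrate response element. These exact letters were held by 2 of 35116 windows. Other spellings were not searched, so the count does not give how common such elements are. No match overlapped another. The 250 bases before the start are printed for *IRS2* and *TXNIP*, the targets that passed the test in a clone, and 30 bases round the match for *PIK3IP1* and *FOXO4*. All run 5′ to 3′ on the strand of the gene, and capitals mark the matches. In *TXNIP* the first capitals are GTAAACA, 124 bases before the start, and the second are the paired E-box, 88 bases before it. The match of *IRS2* lay 40 bases before the start and reads as its reverse complement, as does that of *PIK3IP1*. Those of *PIK3IP1* and *FOXO4* began at bases 17 and 24 of the RefSeq transcript whose window held them. *FOXO3*, *PIK3IP1* and *TXNIP* had several windows from different starts, and the matches of *PIK3IP1* and *TXNIP* lay in a single window each. The match of *FOXO4* lies before the GENCODE span of the gene given below.
TXNIP (chr1:145996580-145996829, minus strand): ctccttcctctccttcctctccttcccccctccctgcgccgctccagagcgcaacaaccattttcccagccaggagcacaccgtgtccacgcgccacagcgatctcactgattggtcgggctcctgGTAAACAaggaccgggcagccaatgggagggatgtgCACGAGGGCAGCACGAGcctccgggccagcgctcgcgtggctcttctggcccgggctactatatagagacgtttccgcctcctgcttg
IRS2 (chr13:109786584-109786833, minus strand): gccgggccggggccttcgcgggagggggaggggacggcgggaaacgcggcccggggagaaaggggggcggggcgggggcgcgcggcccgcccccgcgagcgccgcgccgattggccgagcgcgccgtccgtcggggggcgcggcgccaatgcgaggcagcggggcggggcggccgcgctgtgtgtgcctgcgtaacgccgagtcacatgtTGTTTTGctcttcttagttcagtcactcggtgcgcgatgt
PIK3IP1 (chr22:31292454-31292483, minus strand): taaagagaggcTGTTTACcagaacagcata
FOXO4 (chrX:71095863-71095892, plus strand): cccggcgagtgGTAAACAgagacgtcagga
A match to these letters is a description of the DNA and not evidence of binding in SET2 cells.

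Levels are given as CPM, counts relative to the total of each library after scaling by the trimmed mean of M values (TMM), and comparisons of one gene with another as CPM per kb of exon. In WT cells *TXNIP* was the highest of the members, at 85.6 ± 6.65 CPM per kb (SD, n = 3), and *SESN3* followed at 14.8 ± 2.09. The factors came next, with *FOXO3* at 12.6 ± 1.41, *FOXO4* at 9.21 ± 0.15 and *FOXO1* at 7.62 ± 0.66 CPM per kb. *CCNG2* stood at 3.99 ± 0.468, *IRS2* at 2.91 ± 0.294 and *PIK3IP1* at 1.67 ± 0.159 CPM per kb. Of the neighbors in this order, *SESN3* and *FOXO3* overlapped among the WT libraries and the others did not. *FOXO6*, the remaining FOXO gene and not among the 9, was lower still at 0.941 ± 0.0847 CPM per kb.

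**Figure D1:**
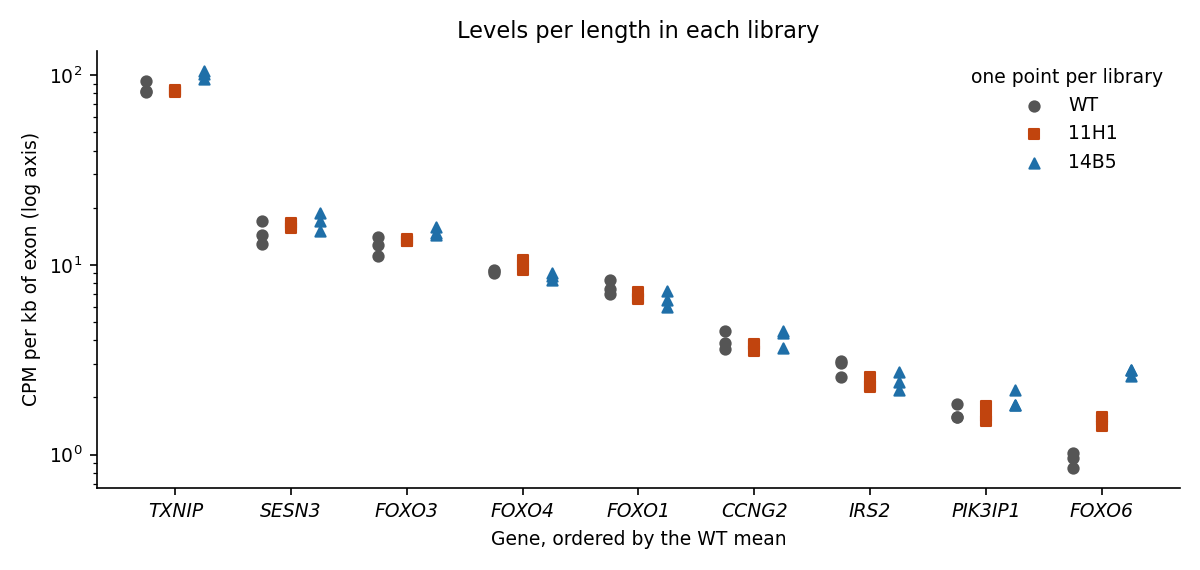
CPM per kb of exon (log axis) in each of the 9 libraries, 1 point per library, for the 8 members that could be tested and *FOXO6*. *TXNIP* stood alone near 85.6 CPM per kb in WT cells, and *FOXO6*, at 0.941 in WT, was the one gene whose 3 groups separated visibly on this scale.

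*KLF2*, a zinc finger factor of quiescent lymphocytes and endothelium, was in effect not detected. WT libraries held 2, 0 and 0 reads, 11H1 libraries 2, 0 and 0, and 14B5 libraries 0, 0 and 1. None exceeded the floor of 3 counts, which stood for 0.0509 to 0.0897 CPM across the libraries, so no fold is given and *KLF2* entered no test. This floor covers counting error only.

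Library totals ran from 32347779 to 60272245 expected counts. *DYRK1A* RNA was 195, 196 and 219 CPM in WT, 188, 187 and 189 in 11H1, and 194, 185 and 176 in 14B5, so that the 6 KO libraries were lower than the 3 WT libraries, by a small margin. The log2 fold change was −0.09 ± 0.05 (SE, adjusted p = 0.131) in 11H1 and −0.17 ± 0.058 (adjusted p = 0.0278) in 14B5. Out-of-frame indels need not lower a transcript, and these levels alone do not check the labels. The share of counts from mitochondrial genes was 3.54% to 6.03% among WT libraries, 7.23% to 7.39% in clone 11H1 and 3.30% to 3.92% in clone 14B5. The 9 markers of the megakaryoblastic line summed to 2214 to 2353 CPM in WT, 1575 to 1634 in 11H1 and 1630 to 1635 in 14B5. In 11H1, 8 were lower and 1 higher past an adjusted p of 0.05, where 32.8% and 31.8% of all genes tested were. In 14B5, 7 were lower and 1 higher, where 28.7% and 24.9% of all genes tested were. The platelet factor *PF4* was at 0 in both clones. Markers of B, T, monocytic, epithelial and stromal cells, 12 in all, summed to 23.5 to 26.0 CPM in WT, 20.1 to 22.6 in 11H1 and 12.5 to 14.6 in 14B5. *CD79A* gave most of this (22.2, 15.9 and 12.4 CPM on average). Of the 12, 5 could be tested, 2 higher and 3 lower in 11H1 and 4 lower in 14B5, against the same shares of all genes. The T cell marker *CD3D* and the collagen gene *COL1A1* were the 2 that rose in 11H1, from 0.83 to 2.99 CPM and from 0.70 to 1.88 CPM on average. *KRT19* was at 0 in WT, with *MS4A1* at 0 in both clones and *COL1A2* at 0 in 14B5. The part of these shifts in the results on FOXO genes was not tested. In bulk RNA, fewer cells with a transcript and less transcript per cell cannot be told apart.

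The first question was whether RNA of the factors and their common targets moved in either clone. In 11H1 versus WT, 2 of the 8 members tested passed an adjusted p of 0.05 (edgeR quasi-likelihood test, Benjamini-Hochberg over all genes tested), *FOXO4* higher and *IRS2* lower, where 64.6% of all 16675 genes tested passed. In 14B5 versus WT, 4 of 8 passed, *FOXO3* and *TXNIP* higher and *FOXO1* and *IRS2* lower, where 53.5% of 16537 genes passed. The changes were small. The median absolute log2 fold change of the 8 members was 0.12 in 11H1 and 0.20 in 14B5, against 0.35 and 0.26 over all genes tested, and the largest was 0.26 in 11H1 and 0.29 in 14B5. With both clones pooled (KO versus WT, all 6 deposited KO libraries against 3), 1 of 8 passed, *IRS2*, where 32.0% of 17080 genes passed. The pooled fit counts the 6 KO libraries as separate replicates, though they came from 2 clones. Its p values therefore rest on fewer independent units than libraries. Libraries of the groups did not overlap for 2 of 8 members in 11H1 versus WT and for 2 of 8 in 14B5 versus WT, where 68.6% and 61.4% of all genes tested did not overlap. For the pooled KO it was 0 of 8, where 36.1% did not overlap. Single libraries decided these counts. In 11H1 the count was 4 without WT replicate 3 and 1 without WT replicate 2 or 11H1 replicate 1 or 3. In 14B5 it was 0 without WT replicate 2 or 14B5 replicate 2 and 2 without WT replicate 1 or 14B5 replicate 3, and the pooled count was 0 without WT replicate 2 or 3, 11H1 replicate 2 or 3, or 14B5 replicate 2 or 3. Both clones are set against the same 3 WT libraries, so their comparisons are not independent. WT replicate 1 was the lowest and replicate 3 the highest of the WT libraries for 7 of 8 members, and their mitochondrial shares were 6.03% and 3.54%.

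**Figure D2:**
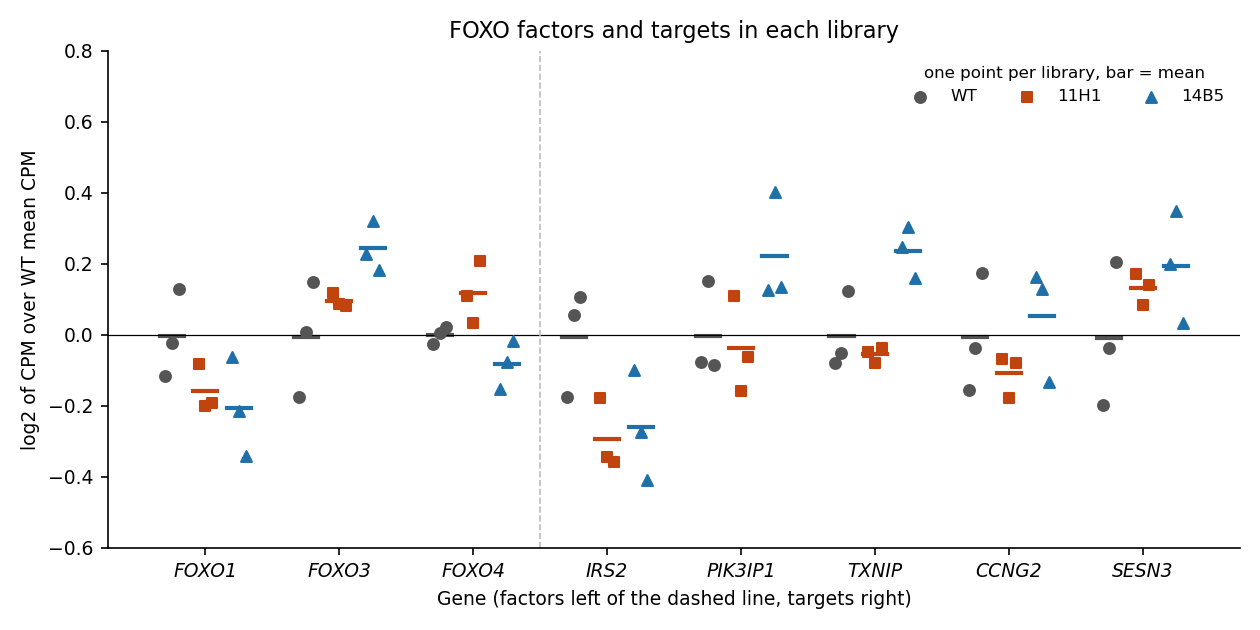
log2 of CPM over the WT mean for each of the 8 members tested, 1 point per library, with bars at the mean of the 3 libraries in a group. The 3 WT libraries spread about as widely as the groups differ for most genes. *IRS2* and *FOXO1* sit below 0 in all 6 KO libraries, and *FOXO3* and *SESN3* sit above 0 in all 6. *TXNIP* and *PIK3IP1* sit above 0 in all 3 libraries of 14B5.

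*FOXO1* (chr13:40469953-40666597, minus strand, GRCh38, GENCODE v29), the DYRK1A substrate, stood at 43.8, 46.7 and 51.9 CPM in WT, 44.9, 41.3 and 41.6 in 11H1, and 45.5, 40.9 and 37.5 in 14B5. The KO libraries lay mostly below WT, with 1 library of each clone inside the WT range. *FOXO1* fell in 14B5 by 0.24 on the log2 scale (SE 0.0798, adjusted p = 0.0287), while 11H1 gave −0.13 ± 0.062 (adjusted p = 0.0806). The difference between the clones was 0.09 (95% interval −0.05 to 0.24), so they were not shown to differ. The fall in 14B5 did not pass without WT replicate 2, WT replicate 3, 14B5 replicate 2 or 14B5 replicate 3 (adjusted p 0.0657, 0.125, 0.107 and 0.0995), and it was −0.16 without WT replicate 3. Without WT replicate 1, *FOXO1* passed in 11H1 too (−0.19, adjusted p = 0.0212), and without 14B5 replicate 1 the clones differed (0.16, adjusted p = 0.0327).

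*FOXO3* (chr6:108559835-108684774, plus strand), the factor with the highest RNA level, stood at 86.2, 97.8 and 108 CPM in WT, 106, 103 and 103 in 11H1, and 114, 122 and 110 in 14B5. All libraries of 14B5 were above WT, and those of 11H1 were inside its range. *FOXO3* rose in 14B5, with a log2 fold change of 0.21 ± 0.073 (adjusted p = 0.0342), and 11H1 gave 0.12 ± 0.066 (adjusted p = 0.134). The rise in 14B5 did not pass without WT replicate 1 (0.14, adjusted p = 0.112), WT replicate 2 (adjusted p = 0.0888), 14B5 replicate 1 (adjusted p = 0.0606) or 14B5 replicate 2 (adjusted p = 0.0987). Without WT replicate 3, *FOXO3* passed in 11H1 as well (0.19, adjusted p = 0.0053).

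*FOXO4* (chrX:71096197-71103535, plus strand) had the tightest WT values, 31.2, 31.8 and 32.2 CPM, with 34.2, 32.5 and 36.7 in 11H1 and 28.6, 30.1 and 31.3 in 14B5. It was the one factor that stood on opposite sides of WT in the clones. The log2 fold change was 0.14 ± 0.055 in 11H1 (adjusted p = 0.044) and −0.12 ± 0.051 in 14B5 (adjusted p = 0.0762). Tested directly, 11H1 exceeded 14B5 by 0.24 ± 0.057 on the log2 scale (adjusted p = 0.00301), and the libraries of the clones did not overlap. The rise over WT in 11H1 lay close to the threshold, and 7 of 15 alternatives kept the call. With any library left out it stayed above 0 (0.09 to 0.18). It did not pass without WT replicate 1 or 2 or 11H1 replicate 1 or 3 (adjusted p 0.119, 0.121, 0.0822 and 0.187), and 11H1 replicate 3 moved it to 0.09. It also missed the threshold when mitochondrial genes were left out (0.13, adjusted p = 0.0517). The difference between the clones passed in all 15 alternatives, with adjusted p up to 0.0203.

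2 further entries carry a FOXO name and moved more than any of the 9 members. *FOXO6* (chr1:41361922-41383590, plus strand), a FOXO factor best known from brain, stood at 2.30, 2.04 and 2.44 CPM in WT, 3.78, 3.65 and 3.38 in 11H1, and 6.18, 6.72 and 6.66 in 14B5. The 3 groups did not overlap. *FOXO6* rose 1.62-fold in 11H1 (log2 fold change 0.70 ± 0.127, adjusted p = 4.31e-04) and 2.82-fold in 14B5 (1.496 ± 0.107, adjusted p = 1.7e-06), and the rise was larger in 14B5 (11H1 versus 14B5 −0.81 ± 0.0966, adjusted p = 1.7e-05). Even in 14B5 it stayed at 2.72 ± 0.122 CPM per kb, below *FOXO1*, *FOXO3* and *FOXO4*.

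*FOXO3B* (chr17:18670946-18672873, minus strand) is a copy of *FOXO3*, listed as protein-coding in the deposited table and as a processed pseudogene in GENCODE v29. It stood at 13.7, 14.3 and 16.0 CPM in WT, 24.1, 21.6 and 24.9 in 11H1, and 18.4, 18.9 and 18.8 in 14B5. *FOXO3B* rose in 11H1 (0.71 ± 0.0743, adjusted p = 5.51e-06) and less in 14B5 (0.32 ± 0.0661, adjusted p = 0.00254), with 11H1 above 14B5 by 0.37 ± 0.0595 (adjusted p = 1.74e-04). Reads from the copies are hard to separate. Of the 100-base stretches in *FOXO3B* transcripts, 45.8% were also in *FOXO3*, and RSEM divides such reads between genes by estimate. *ZNF286B*, a gene on the same strand at a mean of 3.05 CPM, also overlaps 81 exonic bases of *FOXO3B*. *FOXO3B* took 12.7% to 13.7% of the reads of the pair in WT, 17.3% to 19.5% in 11H1 and 13.4% to 14.5% in 14B5. With the pair summed as 1 gene, an alternative chosen after seeing the data, the rise was 0.21 in 11H1 (adjusted p = 0.0124) and 0.22 in 14B5 (adjusted p = 0.0212), so the sum passed in 11H1 where *FOXO3* alone did not. Between the clones the summed pair gave −0.03 for 11H1 versus 14B5, where *FOXO3B* alone gave 0.37.

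**Figure D3:**
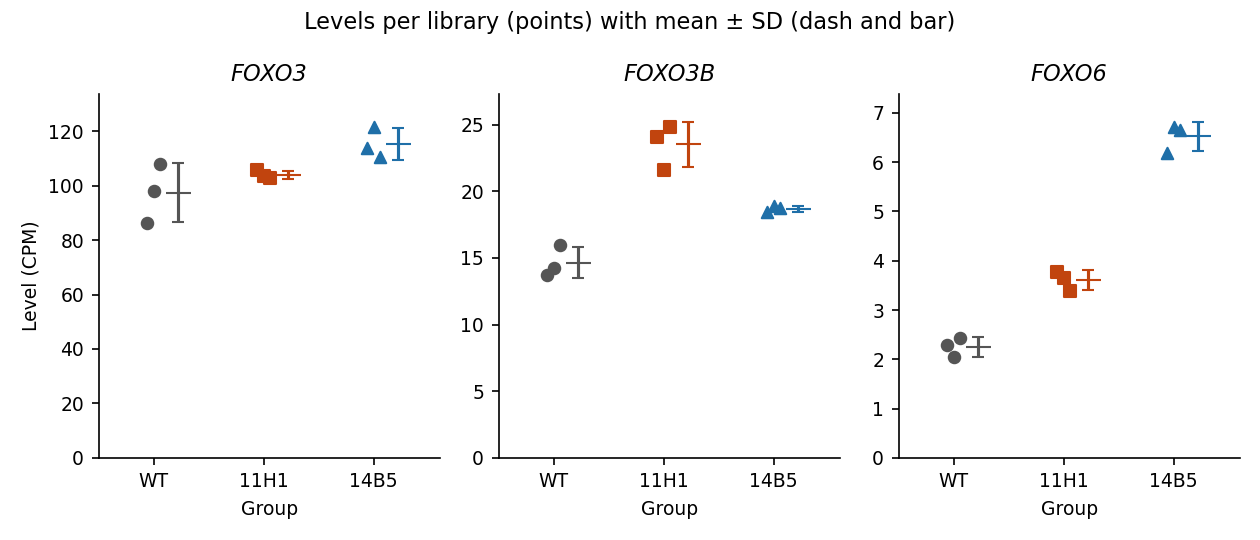
CPM of *FOXO3*, *FOXO3B* and *FOXO6* in each library (points, by group) with the mean and SD of the 3 libraries beside them, on axes that start at 0. *FOXO3B* was highest in 11H1 (21.6 to 24.9 CPM), whereas *FOXO6* was highest in 14B5 (6.18 to 6.72 CPM).

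Among the targets, *IRS2* gave the one change that passed in both clones. *IRS2* (chr13:109752698-109786568, minus strand) encodes an adaptor that carries signals from the insulin receptor to PI3K and is induced by FOXO factors when insulin signaling is low. It stood at 20.9, 24.6 and 25.4 CPM in WT, 20.9, 18.6 and 18.5 in 11H1, and 22.1, 19.6 and 17.8 in 14B5. WT replicate 1 lay near the KO libraries and the other WT libraries above all of them. *IRS2* fell in 11H1 by 0.26 on the log2 scale (SE 0.0779, adjusted p = 0.0104), in 14B5 by 0.29 (SE 0.0915, adjusted p = 0.0211) and in the pooled KO by 0.28 (SE 0.0877, adjusted p = 0.0365). The clones differed by 0.01 (95% interval −0.16 to 0.19). In 11H1 the fall passed in all 15 alternatives, with adjusted p up to 0.0481. In 14B5 it did not pass without WT replicate 2, WT replicate 3, 14B5 replicate 2 or 14B5 replicate 3 (adjusted p 0.0805, 0.0805, 0.0803 and 0.072). The pooled fall did not pass without WT replicate 2 (adjusted p = 0.15), WT replicate 3 (adjusted p = 0.151), 11H1 replicate 2 or 3 (adjusted p 0.0647 and 0.062), or 14B5 replicate 2 or 3 (adjusted p 0.0588 and 0.0569). Of the genes within 5000000 bases of *IRS2*, the median log2 fold change was 0.06 in 11H1 and −0.02 in 14B5.

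*TXNIP* (chr1:145992435-145996600, minus strand) encodes a thioredoxin-binding arrestin that limits glucose uptake, and its promoter holds both the FOXO core and the paired E-box printed above. It stood at 294, 299 and 338 CPM in WT, 300, 294 and 303 in 11H1, and 368, 383 and 347 in 14B5. All 14B5 libraries exceeded all others, and the 11H1 libraries were inside the WT range. *TXNIP* rose in 14B5 (0.20 ± 0.0614, adjusted p = 0.0189) and gave −0.03 ± 0.054 in 11H1 (adjusted p = 0.614). The clones differed, with 11H1 below 14B5 by 0.25 on the log2 scale (SE 0.0453, adjusted p = 4.55e-04), and this passed in all 15 alternatives. The rise over WT in 14B5 did not pass without WT replicate 1, WT replicate 2 or 14B5 replicate 2 (adjusted p 0.0651, 0.0815 and 0.0636).

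The remaining targets did not pass in any of the comparisons. *SESN3* (chr11:95165513-95232541, minus strand), a sestrin that restrains mTORC1, stood at 136, 152 and 180 CPM in WT, 176, 166 and 172 in 11H1, and 179, 199 and 160 in 14B5. Its log2 fold change was 0.16 in 11H1 (95% interval −0.01 to 0.32) and 0.16 in 14B5 (−0.06 to 0.39). These values turned on the WT libraries. Without WT replicate 3, *SESN3* passed in 11H1 (0.26, adjusted p = 5.11e-04) and in 14B5 (0.29, adjusted p = 0.0206). Without WT replicate 1 the values were 0.06 and 0.08. An antisense gene, AP000787.1, at 1.8 CPM, overlaps 93 exonic bases of *SESN3*, and the strand setting of the counting is not given in the sources used here.

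*CCNG2* (chr4:77157151-77433388, plus strand), an unconventional cyclin tied to growth arrest, stood at 26.8, 29.1 and 33.6 CPM in WT, 28.4, 26.4 and 28.2 in 11H1, and 33.4, 32.6 and 27.2 in 14B5, and the groups overlapped. Its log2 fold change was −0.08 in 11H1 (95% interval −0.25 to 0.08) and 0.02 in 14B5 (−0.19 to 0.23). *PIK3IP1* (chr22:31281593-31292534, minus strand), which binds and inhibits PI3K, stood at 6.01, 7.03 and 5.97 CPM in WT, 6.84, 5.68 and 6.07 in 11H1, and 6.92, 8.37 and 6.96 in 14B5. Its log2 fold change was −0.00 in 11H1 (−0.23 to 0.22) and 0.19 in 14B5 (−0.05 to 0.43). A p that misses the threshold does not show that these genes were equal between the groups.

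**Figure D4:**
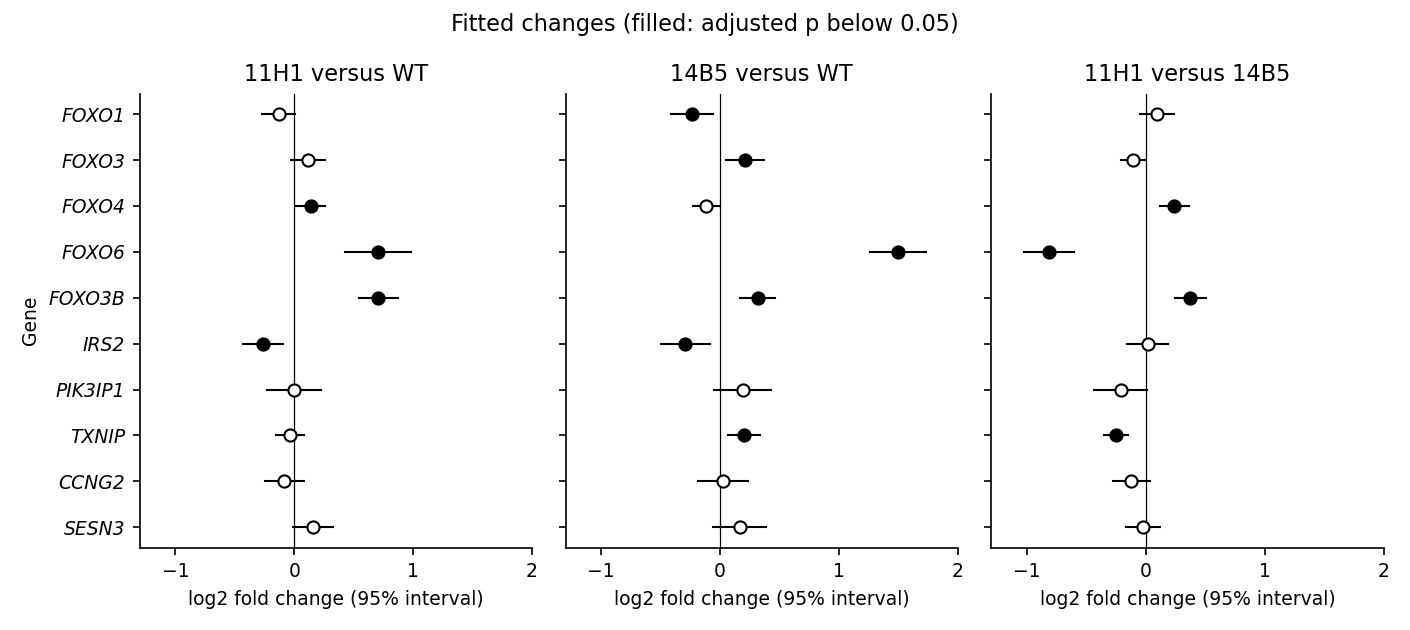
Fitted log2 fold change (point) and its 95% interval (line) for the 8 members tested, *FOXO6* and *FOXO3B*, in 11H1 versus WT, 14B5 versus WT and 11H1 versus 14B5. Filled points passed an adjusted p of 0.05. Members lay between −0.29 and 0.21 against WT, and *FOXO6* reached 0.70 and 1.496.

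The clones were also compared directly, which asks whether clones edited at the same gene differ in these members. Of the 8 members, 2 passed, *FOXO4* higher and *TXNIP* lower in 11H1, where 63.7% of 16352 genes tested passed. Libraries of the clones did not overlap for 4 of 8, where 69.0% of genes did not overlap. The additional pair, *FOXO3* and *PIK3IP1*, was lower in every 11H1 library, with log2 fold changes of −0.11 ± 0.0458 (adjusted p = 0.0573) and −0.21 ± 0.102 (adjusted p = 0.0874). Without 14B5 replicate 3 the count was 4, with *FOXO3* (−0.14, adjusted p = 0.0155) and *CCNG2* (−0.21, adjusted p = 0.00383) also past the threshold.

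The wider FOXO program was read from 50 further target genes, of which 42 could be tested. They were listed from general knowledge, with earlier results of these data known. *FASLG*, *PDK4*, *PCK1*, *G6PC*, *IGFBP1*, *IRS1*, *PPARGC1A* and *IL7R* had too few counts. In 11H1, 8 rose and 22 fell, where 31.8% and 32.8% of all genes tested rose and fell, and the median log2 fold change of the list was −0.26 against −0.01 over all genes. In 14B5, 11 rose and 19 fell, where 24.9% and 28.7% of all genes rose and fell, and the median was −0.14 against −0.01. In the pooled KO, 5 rose and 14 fell, where 14.3% and 17.7% of all genes rose and fell, and the total of 19 became 11 without WT replicate 2 and 12 without WT replicate 3. These genes moved in both directions, and several by more than any of the 9 members.

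Growth arrest genes held the largest rises. *CDKN1A*, which encodes the CDK inhibitor p21 and is also a p53 target, stood at 6.79, 7.50 and 7.02 CPM in WT, 30.7, 30.6 and 28.5 in 11H1, and 21.5, 23.8 and 22.8 in 14B5. It rose 4.28-fold in 11H1 (log2 fold change 2.10 ± 0.0676, adjusted p = 4.16e-10) and 3.12-fold in 14B5 (1.64 ± 0.0697, adjusted p = 4.24e-08). *KLF6*, a zinc finger factor and a paralog of *KLF2*, rose 1.81-fold and 2.99-fold. *CDKN1B*, which encodes the CDK inhibitor p27, rose by log2 fold changes of 0.34 and 0.71. Of the 9 growth arrest genes 6 fell in 11H1 and 4 in 14B5, where 32.8% and 28.7% of all genes fell. Among them were the antiproliferative *BTG1* (−0.55 and −0.28) and the transcriptional coregulator *CITED2* (−0.31 and −0.43).

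Among the wider targets at 1 CPM or more, the largest falls in 11H1 were those of *BNIP3*, *SELENOP* and *DDIT4*. In 14B5 *SELENOP* fell most. *BNIP3*, a mitophagy receptor that low oxygen also induces, stood at 58.4, 65.2 and 72.9 CPM in WT, 4.62, 4.96 and 4.76 in 11H1, and 30.9, 38.5 and 27.7 in 14B5. It fell 13.5-fold in 11H1 and 2.07-fold in 14B5, and the clones differed (11H1 versus 14B5 −2.72 ± 0.118, adjusted p = 7.66e-09). *DDIT4*, an mTORC1 inhibitor also induced by low oxygen, fell 4.35-fold in 11H1 and 1.27-fold in 14B5. The fall of *DDIT4* in 14B5 did not pass without WT replicate 2 or 3 or 14B5 replicate 1 or 3 (adjusted p up to 0.126). *SELENOP*, a secreted selenoprotein, stood at 10.6, 10.4 and 11.7 CPM in WT and between 0.897 and 1.90 in the KO libraries, and fell 10.2-fold and 7.15-fold. In 11H1 the autophagy kinase gene *ULK1* rose (0.53 ± 0.0709, adjusted p = 4.25e-05), and 14B5 gave −0.06 ± 0.0642. Of the 12 autophagy and proteolysis genes, 2 rose and 6 fell in each clone. Of all genes tested, 31.8% rose and 32.8% fell in 11H1, and 24.9% rose and 28.7% fell in 14B5.

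Of the 5 targets known from lymphocytes that could be tested, 3 fell in 11H1 and 2 in 14B5, where 32.8% and 28.7% of all genes fell. *S1PR1*, the receptor that draws lymphocytes out of tissue, stood at 20.6, 21.0 and 25.5 CPM in WT, 5.17, 5.53 and 6.64 in 11H1, and 4.91, 5.09 and 4.77 in 14B5, a fall of 3.84-fold and 4.65-fold. Of the 5 cell death genes tested, 1 rose and 2 fell in 11H1, and 2 rose and 3 fell in 14B5. The shares over all genes tested were 31.8% and 32.8% in 11H1, and 24.9% and 28.7% in 14B5. *BCL2L11*, which encodes the BH3 protein BIM, rose in both clones (0.30 and 0.46). *BBC3* rose in 14B5 (0.69 ± 0.0665, adjusted p = 1.48e-05) and gave 0.15 in 11H1 (adjusted p = 0.199). *PMAIP1* and *TNFSF10* fell in both (−0.54 and −0.42, and −0.74 and −0.25). Of the 6 oxidative stress genes, 1 rose and 3 fell in 11H1, and 3 rose and 2 fell in 14B5. The same shares of all genes apply. The mitochondrial peroxidase gene *PRDX3* fell in 11H1 (−0.28) and rose in 14B5 (0.28). *CAT*, which encodes catalase, rose in 14B5 (0.47 ± 0.0516, adjusted p = 3.5e-05) and gave 0.10 in 11H1.

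**Figure D5:**
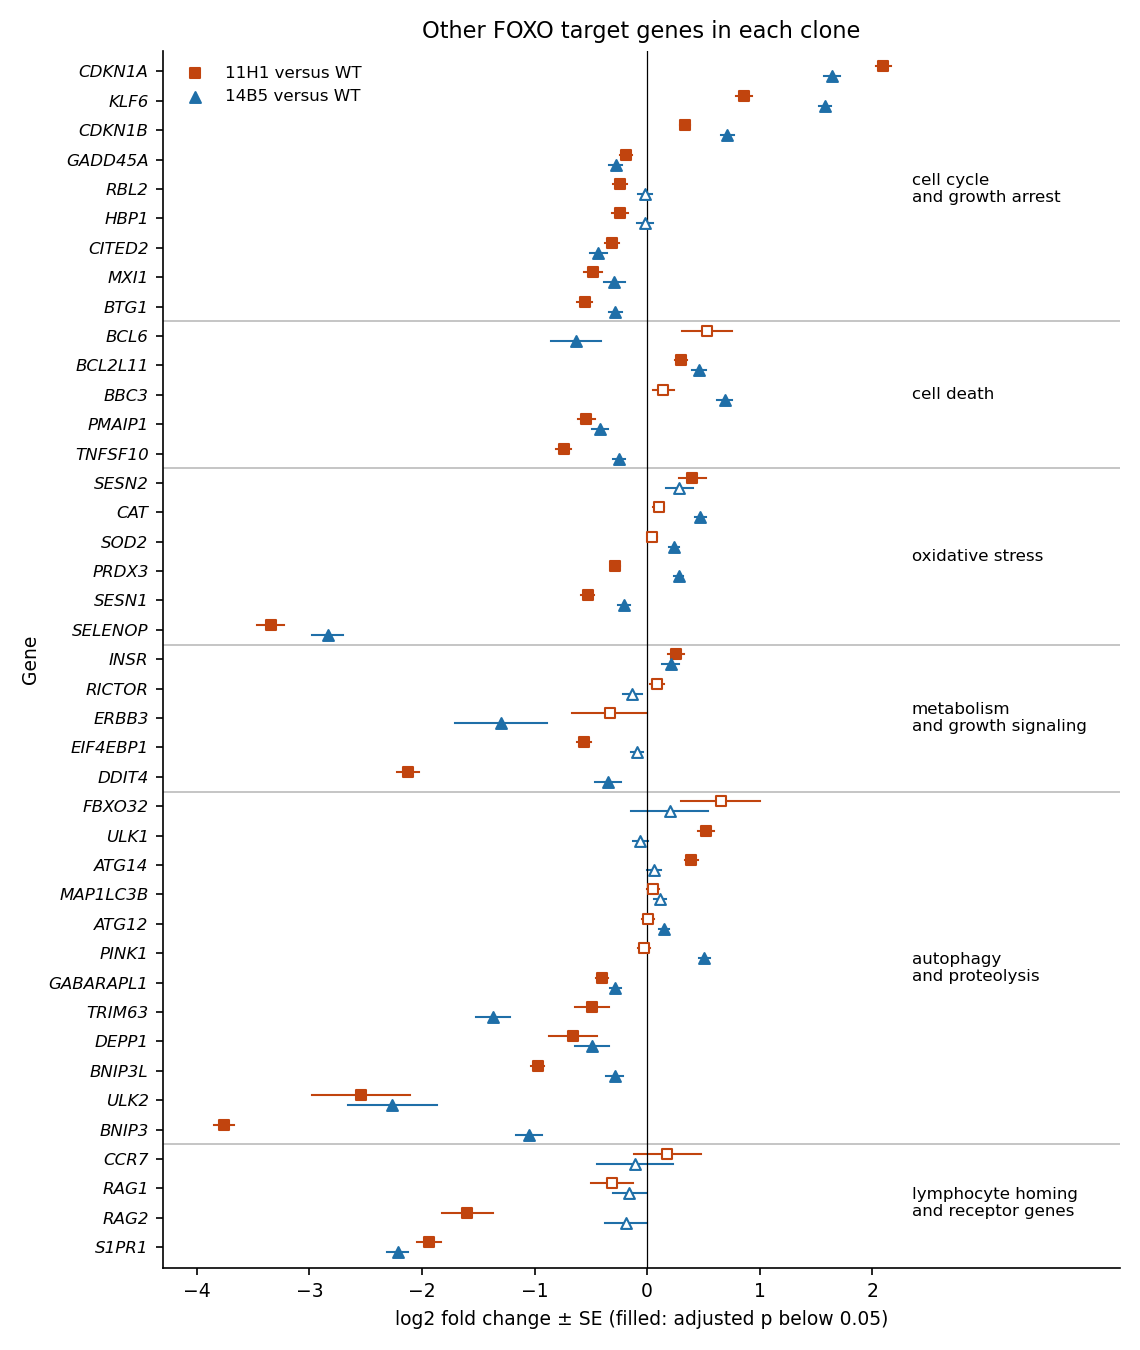
log2 fold change against WT (point) with its SE (line) for 41 further FOXO targets tested, grouped by role, with squares for 11H1 and triangles for 14B5. Filled points passed an adjusted p of 0.05. *CDKN1A* lay at 2.10 and 1.64, *BNIP3* at −3.76 and −1.05, and most genes within 1 of 0.

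Upstream of the factors, 25 genes of PI3K–AKT signaling were listed. In 11H1 10 rose and 8 fell of 24 tested, where 31.8% and 32.8% of all genes rose and fell. In 14B5 6 rose and 8 fell of 25, where 24.9% and 28.7% of all genes did, so both sets of counts lay near the background. The regulatory subunit *PIK3R2* stood at 18.0, 18.9 and 19.7 CPM in WT, 64.8, 62.5 and 59.8 in 11H1, and 65.5, 69.2 and 67.2 in 14B5, with log2 fold changes of 1.75 ± 0.0533 and 1.80 ± 0.0509. The regulatory subunit *PIK3R3* rose by 1.20 and 0.77. All 4 catalytic subunit genes, *PIK3CA*, *PIK3CB*, *PIK3CD* and *PIK3CG*, fell in both clones, by 0.46, 0.62, 0.50 and 0.37 on the log2 scale in 11H1 and by 0.31, 0.50, 0.63 and 0.94 in 14B5. *PIK3R5*, which partners PIK3CG, stood at 6.24 ± 0.199 CPM in WT, 3.55 ± 0.472 in 11H1 and 0.470 ± 0.139 in 14B5. Of the kinases that phosphorylate FOXO factors, *AKT2* rose (0.62 and 0.39) and *SGK3* fell (−0.35 and −0.76). *SGK1*, near 1 CPM, rose in 11H1 (1.06 ± 0.233, adjusted p = 0.00171) and gave 0.47 in 14B5, and *AKT1* gave 0.08 and −0.04 and did not pass. The mTORC1 repressor gene *TSC2* rose in 11H1 (0.67 ± 0.0467, adjusted p = 1.73e-07), and 14B5 gave −0.10 (adjusted p = 0.0805).

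Of 32 further regulators of FOXO proteins, 31 could be tested. In 11H1 14 rose and 9 fell, against 31.8% and 32.8% of all genes, and in 14B5 17 rose and 3 fell, against 24.9% and 28.7%. The acetyltransferase genes *EP300* and *CREBBP* rose in 11H1 (0.81 and 0.72) and gave 0.09 and −0.06 in 14B5, and the clones differed by 0.70 ± 0.0582 (adjusted p = 9.58e-07) and 0.77 ± 0.051 (adjusted p = 1.84e-07). *IKBKB*, which encodes a kinase that marks FOXO3 for degradation, rose in 11H1 (0.65). The deacetylase gene *SIRT1* rose in both clones (0.45 and 0.63), as did *CDK1* (0.23 and 0.54) and *CDK2* (0.40 and 0.47), whose products phosphorylate FOXO1. *CSNK1A1*, a casein kinase gene, fell in both (−0.61 and −0.36). The methyltransferase gene *SETD7* fell in 11H1 (−0.36). *MAPK8*, which encodes JNK1, fell in both clones (−0.36 and −0.15), and *STK4*, which encodes MST1, rose in 11H1 (0.25) and fell in 14B5 (−0.17). The falls of *MAPK8* and *STK4* in 14B5 did not pass in several alternatives, among them those without WT replicate 2, WT replicate 3, 14B5 replicate 1 or 14B5 replicate 3 (adjusted p up to 0.147 and 0.136), and for *MAPK8* also without 14B5 replicate 2. The exportin gene *XPO1* and the 14-3-3 genes, whose products move FOXO proteins to the cytoplasm and hold them there, came to 7 tested genes, all of which were lower in 11H1 than in 14B5 past the threshold, where 32.1% of all genes were. Against WT, 6 of the 7 rose and 0 fell in 14B5, where 24.9% and 28.7% of all genes did. In 11H1, 2 rose and 2 fell, where 31.8% and 32.8% of all genes did.

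Paralogs of the members moved in both directions. Of 16 paralogs listed, among them *IRS1*, *KLF6*, *SESN1* and *SESN2* of the target list, 12 could be tested, with 5 higher and 5 lower in 11H1 (31.8% and 32.8% of all genes) and 5 higher and 4 lower in 14B5 (24.9% and 28.7% of all genes). *CCNG1*, the paralog of *CCNG2* and a p53 target, stood at 138, 143 and 150 CPM in WT, 69.1, 63.0 and 65.9 in 11H1, and 113, 113 and 102 in 14B5, and fell 2.14-fold and 1.34-fold. *SESN1*, the paralog of *SESN3*, fell (−0.53 and −0.20), and its fall in 14B5 did not pass without 14B5 replicate 2 (adjusted p = 0.0514). *KLF7* fell (−0.49 and −0.99). Of the arrestin genes related to *TXNIP*, *ARRDC2* rose in both clones (0.42 and 0.26), *ARRDC3* rose in 14B5 (0.32), and *ARRDC1* rose in 11H1 and fell in 14B5 (0.22 and −0.22). The rise of *ARRDC1* in 11H1 did not pass without 11H1 replicate 1 (adjusted p = 0.0706), nor its fall without WT replicate 2, 14B5 replicate 2 or 14B5 replicate 3 (adjusted p up to 0.152).

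Among 11934 protein-coding genes at 1 CPM or more, those whose log2 CPM most resembled each factor over the 9 libraries were found by Pearson's r. For *FOXO1* they were *CEP41* (0.960), *ZNF175* (0.952) and *DYRK1A* itself (0.941). For *FOXO3* they included *ZNF678* (0.966) and *FNIP2* (0.964), and for *FOXO4* *ZNF836* (0.945), *ADAL* (0.944) and *MACF1* (0.936). These are the highest of many values over libraries that fall in 3 groups and differ in depth and mitochondrial share, and they are given as a description.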

How the data were processed

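The table the authors deposited held expected counts from RSEM, not scaled for depth or length, for 9 libraries of SET2 cells (WT, 11H1 and 14B5, n = 3 each). Per the submitters' processing notes, STAR 2.7.9a, Picard and RSEM were used with GRCh38. The 92 spike-in entries, at 0 throughout, were left out, leaving 60662 genes. After rounding, the whole table was fitted in edgeR 4.0.16 under R 4.3.3 (TMM, filterByExpr, quasi-likelihood F test, Benjamini-Hochberg over all genes tested, threshold 0.05), for each clone versus WT, both clones pooled versus WT (all 6 deposited KO libraries, 1 more than the study's own comparison used), and 11H1 versus 14B5. Totals ran from 32347779 to 60272245, and the floor of detection was 3 counts. The labels and the paper name different library kits, and the strand setting of the counting is not given in the sources used here. Replicates differed by more than sampling noise in every pair.

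Named genes are the 9 members, every entry with a FOXO name (*FOXO1B* was at 0 in every library), *DYRK1A*, the 3 largest rises and falls of each list per clone among genes past the threshold at 1 CPM or more, and the 3 genes nearest each factor. Some genes under these rules are not reported here. Other genes of the lists (*BTG1*, *CITED2*, *BCL2L11*, *BBC3*, *PMAIP1*, *TNFSF10*, *PRDX3*, *CAT*, *PIK3CA*, *SGK1*, *AKT1* and *XPO1*) and the marker genes were named after their values were seen. The members and all lists were chosen with earlier results of these data known. *SOD2* has 2 entries in the table, of which the first was used. Promoter windows are those of RefSeq on GRCh38.p14, and gene positions and exon lengths those of GENCODE v29. Alternatives were the Wald test or size factors of DESeq2 1.42.0, voom in limma 3.58.1 without rounding, dropping the filter or asking for 10 counts throughout, restriction to protein-coding genes, a block for the replicate number, 1 fit of all 3 groups, and each library left out. After seeing the data, 2 more were added, without mitochondrial genes and with *FOXO3* and *FOXO3B* summed. Scripts were tested on simulated counts.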

Additional observations from a re-analysis of the deposited data

Results flagged for a closer look

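The 11H1 and 14B5 clones differed from each other in 4 FOXO genes and targets by the edgeR quasi-likelihood test of the clones themselves, 3 libraries against 3. *FOXO4* was 0.24 higher on the log2 scale in 11H1 (adjusted p = 0.00301), standing above WT in 11H1 and below its mean in 14B5. *TXNIP* gave −0.25 for 11H1 versus 14B5 (adjusted p = 4.55e-04), with only 14B5 past the threshold against WT. *FOXO6* gave −0.81 (adjusted p = 1.7e-05) and *FOXO3B* 0.37 (adjusted p = 1.74e-04), each higher than WT in both clones. Reads of *FOXO3B* are divided from those of *FOXO3* by estimate, and with the pair summed 11H1 versus 14B5 gave −0.03. All 4 differences were larger than the spread between libraries of a clone, with no overlap of the 3 libraries against 3. Such differences were common between these clones, where 63.7% of the 16352 genes tested passed and 69.0% did not overlap. Each clone descends from 1 cell, so the clone and its lesion cannot be told apart. Groups of 3 libraries are too small for a test of single outlying libraries.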

How the results depend on the processing

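Each alternative changed 1 choice, except that the DESeq2 Wald test also used its own size factors and limma-voom also used unrounded values. The fall of *IRS2* in 11H1, the differences of *FOXO4* and *TXNIP* between the clones, and all changes of *FOXO6* and *FOXO3B* kept their direction and stayed past the threshold in the 15 alternatives run for each. Of 63 calls named from the lists against WT, 57 did so. The count of 2 members in 11H1 became 1 under the DESeq2 Wald test, with at least 10 counts in every library, and without mitochondrial genes, *FOXO4* being the one lost, and ran from 1 to 4 with a library left out. The 4 members in 14B5 became 0 with the replicate number as a block and ran from 0 to 3. The 1 member in the pooled KO became 0 without a filter and with the replicate block, 3 in the fit of 3 groups, whose spread leaves out that between clones, and ran from 0 to 1. The 2 members between the clones became 4 without a filter and ran from 2 to 4. In the pooled KO, the fit of 3 groups passed 33 of the wider targets, 18 PI3K–AKT genes and 21 regulators where 19, 11 and 9 passed before. The replicate block passed 11 of the wider targets, and with a library left out they ran from 11 to 19 and the regulators from 5 to 11. Same-numbered libraries did not deviate together (correlations −0.145 to 0.0584 over 9 pairs), so the numbers do not pair the samples, and the block is given for completeness.

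Direction turned only where no call was made. With a library left out, the log2 fold change ran in 11H1 versus WT from −0.085 to 0.066 for *PIK3IP1* (0.052 and 0.011 without 11H1 replicates 2 and 3), from −0.073 to 0.023 for *TXNIP* and from −0.16 to 0.00097 for *CCNG2*. In 14B5 *CCNG2* ran from −0.042 to 0.13 (−0.015 without 14B5 replicate 1). In the pooled KO *CCNG2* ran from −0.099 to 0.066 (0.00066 and 0.00035 without 11H1 replicate 2 and 14B5 replicate 3) and *FOXO4* from −0.031 to 0.055. Between the clones *IRS2* ran from −0.060 to 0.088 (−0.044 and −0.0032 without 11H1 replicate 1 and 14B5 replicate 2) and *SESN3* from −0.11 to 0.048. *PIK3IP1* in 11H1 was 0.0063 with limma-voom and 0.019 with protein-coding genes, *IRS2* between the clones −0.010 without a filter, and *SESN3* between them 0.015 with protein-coding genes. The cause was not tested. *KLF2* was at or under the floor of 3 counts in every library and is given no fold.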
